A study of Rattus norvegicus with 6 samples.

Results

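Genes of glycolysis and of the response to low oxygen were examined in cultured neonatal rat cardiac fibroblasts (NRCFs). The list named 38 genes, and it was split into 26 that carry glucose to lactate or control pyruvate and 12 that sense oxygen or respond to its lack. A gene was kept when at least 3 libraries held 10 or more counts of it, which left 37 of the 38 (13024 of the 21857 symbols in the files passed the same rule). The NRCFs were primary cells from hearts of healthy newborn Sprague-Dawley rats, no older than 3 days (the strain label reads "Noway"), and they were transfected with a plasmid. The 3 Vector libraries, whose genotype label is WT, came from cells given the empty plasmid, and the 3 libraries with the genotype label FTO overexpression came from cells given a plasmid with FTO, a demethylase of N6-methyladenosine in RNA. The labels name no oxygen condition. The methods describe a hypoxia chamber for NRCFs without saying whether the sequenced cultures had been in it.

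Glycolysis turns glucose into pyruvate in the cytosol, and lactate dehydrogenase then turns pyruvate into lactate, which leaves the cell through monocarboxylate carriers. When oxygen is low, prolyl hydroxylases of the Egln family no longer mark the HIF α subunits for destruction, and HIF raises genes of glycolysis, of blood vessel growth and of mitophagy through short DNA elements with the core ACGTG or GCGTG. HIF is controlled mostly through protein stability, which RNA-seq does not measure. Fibroblasts of the injured heart often lie in poorly perfused tissue.

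The level of Fto itself was 88.3 ± 1.2 CPM (counts per 1000000, after scaling of the libraries) in the Vector group and 92.3 ± 1.32 CPM in the other (SD, 3 libraries each), a log2 fold change of 0.06 that did not pass the edgeR test (adjusted p-value 0.239). For this reason the second group is called the libraries labelled FTO. The paper reports that qRT-PCR bore out the transfection of its plasmid, which holds rat FTO cDNA, in cardiac fibroblasts. It also reports less N6-methyladenosine in dot blots of such cells. Its supplement compares FTO protein after transfection of the plasmid with that of Vector, as a measure of transfection efficiency. Whether those were the sequenced cultures is not stated. Library totals ran from 13178952 to 17857999 counts. Fibroblast markers were present in every library. Their summed level was 40130 to 40770 CPM in Vector and 19820 to 20810 CPM in the libraries labelled FTO. Of the 9, 5 were lower and 4 higher. Col1a1 and Col3a1 made up most of the Vector sum, with group means falling from 25809 to 8268 CPM and from 10699 to 3338 CPM. Dcn had the largest rise of the 9, from 47 to 5611 CPM. Markers of cardiomyocytes were also present, at 1513 to 1546 CPM in sum in Vector and 2280 to 2324 CPM in the libraries labelled FTO, with 7 of 8 higher. The macrophage markers summed to 694.7 to 715.4 CPM and to 203.3 to 228.3 CPM, 9 of 10 being lower and C1qb and C1qc at or under 3 counts in each library labelled FTO. Endothelial markers were at 24.5 to 25 CPM in sum in Vector and at 52.9 to 55.8 CPM in the others, with 4 of 5 tested higher, while mural markers were at 720.3 to 735.8 CPM and at 266.3 to 294.5 CPM, with 3 of 5 tested lower and 2 higher. For comparison, 33.2% of all tested genes were higher and 32.8% lower. The part of other cell types in the results below was not tested. In these bulk libraries, fewer cells of a type and less RNA per cell cannot be told apart. Nothing in the labels says that the replicates were separate cultures, so p-values measure the spread between these libraries, which may be technical.

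To show where the HIF core lies in these genes, promoter windows were read from RefSeq on the build GRCr8. Each window holds 250 bases before and 50 bases after a gene's start, and 35 of the 38 members matched. The 6 windows below were chosen because they pair genes that rose strongly with a gene that fell and one that did not pass. Capitals mark ACGTG or GCGTG on either strand (CACGT or CACGC on the strand shown), and overlapping matches, as in CACGTG, were counted as 1 site. Ldha lies on chr1:106507842-106508141 (plus strand), Bnip3 on chr1:203154913-203155212 (minus), Egln3 on chr6:77410966-77411265 (minus), Adm on chr1:174179950-174180249 (plus), Ankrd37 on chr16:53001257-53001556 (plus) and Car9 on chr5:62558774-62559073 (plus).
Ldha: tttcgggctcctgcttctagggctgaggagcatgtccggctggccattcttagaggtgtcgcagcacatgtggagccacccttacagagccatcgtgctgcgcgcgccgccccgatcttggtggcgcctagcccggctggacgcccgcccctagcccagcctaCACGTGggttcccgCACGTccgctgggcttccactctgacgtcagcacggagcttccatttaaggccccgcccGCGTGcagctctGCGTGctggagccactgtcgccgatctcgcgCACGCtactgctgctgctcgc
Bnip3: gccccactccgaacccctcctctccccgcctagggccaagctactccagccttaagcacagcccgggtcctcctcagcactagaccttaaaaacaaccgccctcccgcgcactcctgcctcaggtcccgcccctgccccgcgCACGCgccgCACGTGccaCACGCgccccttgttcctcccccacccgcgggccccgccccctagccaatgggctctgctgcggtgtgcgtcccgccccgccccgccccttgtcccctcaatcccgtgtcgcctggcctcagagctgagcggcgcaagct
Egln3: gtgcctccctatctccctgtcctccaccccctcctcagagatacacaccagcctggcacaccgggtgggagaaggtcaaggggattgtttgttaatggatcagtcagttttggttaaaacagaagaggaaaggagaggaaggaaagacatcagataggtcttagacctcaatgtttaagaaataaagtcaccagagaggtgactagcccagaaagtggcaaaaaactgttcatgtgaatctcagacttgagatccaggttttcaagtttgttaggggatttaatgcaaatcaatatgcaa
Adm: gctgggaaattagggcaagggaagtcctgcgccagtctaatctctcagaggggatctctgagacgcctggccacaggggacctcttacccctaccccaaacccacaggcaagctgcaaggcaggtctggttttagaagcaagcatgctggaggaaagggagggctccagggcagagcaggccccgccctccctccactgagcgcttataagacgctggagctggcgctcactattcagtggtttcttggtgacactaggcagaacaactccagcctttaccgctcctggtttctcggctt
Ankrd37: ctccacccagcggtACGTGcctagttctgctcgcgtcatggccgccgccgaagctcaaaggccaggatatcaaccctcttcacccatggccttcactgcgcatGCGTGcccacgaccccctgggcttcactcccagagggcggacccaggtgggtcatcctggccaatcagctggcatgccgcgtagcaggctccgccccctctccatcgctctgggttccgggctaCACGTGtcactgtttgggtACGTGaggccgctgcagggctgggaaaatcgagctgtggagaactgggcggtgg
Car9: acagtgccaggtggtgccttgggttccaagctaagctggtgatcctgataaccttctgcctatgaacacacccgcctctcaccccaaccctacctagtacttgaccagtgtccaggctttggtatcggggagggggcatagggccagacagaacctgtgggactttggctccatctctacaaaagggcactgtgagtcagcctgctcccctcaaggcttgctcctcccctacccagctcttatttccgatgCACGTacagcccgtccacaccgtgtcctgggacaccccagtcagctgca

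The Ldha window held 5 sites and the Bnip3 window 3. In Ldha, CACGTG lay 87 to 82 bases before the start, and in Bnip3 it lay 99 to 94 bases before it. No site was found in the Egln3 and Adm windows, although these genes had some of the highest fold changes among the members. The Ankrd37 window held 4 sites, and Ankrd37 did not pass the test. Over the 35 members with a window, ACGTG was found in 21 (60%) and GCGTG in 16 (45.7%), and 25 (71.4%) held either. Of the 33469 windows of the whole RefSeq table, 19.3% held ACGTG, 29.7% GCGTG and 41.6% either. By gene, among the 9675 tested genes with a window, these shares were 26.2%, 50.8% and 62.6%. Within the members, ACGTG was found in 15 of the 27 with a window that were higher in the libraries labelled FTO, in both that were lower, and in 3 of 5 that did not pass. A match is a description of the letters only, and the absence of a match in so short a window tells nothing about HIF.

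The members were mostly higher in the libraries labelled FTO. Of 37 tested members, 32 passed the quasi-likelihood test of edgeR at an adjusted p-value of 0.05, against a background of 65.9% of all 12941 genes tested. In the higher direction there were 30 members (33.2% of all tested genes) and in the lower direction 2 (32.8% of all tested genes). A change of at least 2-fold with an unadjusted p-value under 0.05, the threshold of the study taken in either direction, was met by 17 members (19.6% of all tested genes). Of these, 16 were higher (10.4%) and 1 was lower (9.27%). The values of the groups did not overlap for 34 members, where 70.3% of all tested genes did not overlap. The median log2 fold change was 0.96 over the tested members and 0.00 over all tested genes. Only Tpi1 passed the count rule through the libraries labelled FTO alone, so that its rise was built into its selection, and without it the median was also 0.96, with 29 members higher and 2 lower.

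By role, the lactate enzymes and carriers (4 of 4 higher), the oxygen sensing genes (4 of 4) and the glucose transporters (2 of 2) had the highest medians, at 1.84, 1.94 and 1.62. The glycolytic enzymes followed, with 13 of 14 tested higher and a median of 0.97. Tpi1, whose rise was built into its selection, is among the 13. The genes that set fructose-2,6-bisphosphate and the pyruvate dehydrogenase kinases had medians of 0.09 and 0.06, with 1 of 2 and 1 of 3 passing. The other hypoxia targets were divided, with 6 of 8 higher, 1 lower and a range from -1.38 to 2.08. Split in 2, the glycolytic genes had 20 higher (Tpi1 again included) and 1 lower of 25 tested, with a median of 0.96. The hypoxia genes had 10 higher and 1 lower of 12, with a median of 1.19. Over all tested genes, 33.2% were higher and 32.8% lower, and several of the role lists hold only 2 to 4 genes. Many of the glycolytic genes are themselves known HIF targets, so the split is one of role and not of regulation. The summed level of the 38 members was between 5243 and 5347 CPM in Vector and between 11543 and 12009 CPM in the libraries labelled FTO.

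**Figure D1:**
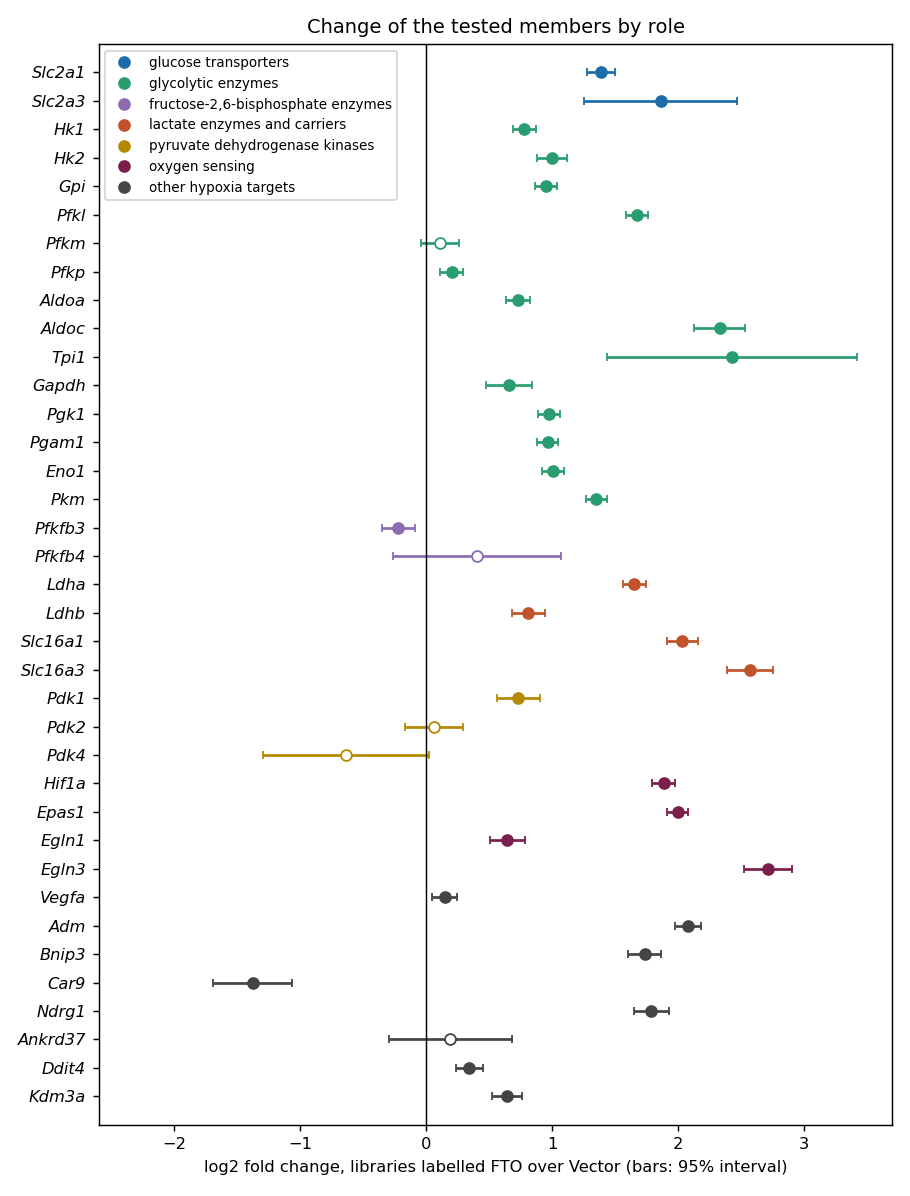
Log2 fold change of the 37 tested members, libraries labelled FTO over Vector (x axis), with the 95% interval as a bar and the genes in the order of their roles (y axis, colours). Filled points had an adjusted p-value under 0.05, and the 5 open points did not. Egln3 lies farthest to the right at 2.71 and Car9 farthest to the left at -1.38.

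Glucose enters the cell through facilitative transporters, of which Slc2a1 (GLUT1) is the common form and Slc2a3 (GLUT3) has a high affinity for glucose. Slc2a1 was at 63.4, 65.3 and 61.6 CPM in Vector replicates 1, 2 and 3 and at 171, 171 and 156 CPM in the libraries labelled FTO. It rose 2.61-fold (log2 fold change 1.39, SE 0.0524, adjusted p-value 2.9e-12 in the edgeR test), and each library labelled FTO lay above each Vector library. Slc2a3 was scarce, with 7 to 13 counts in the Vector libraries and 32 to 51 in the others. It was at 0.512, 0.872 and 0.762 CPM in Vector and at 2.24, 2.79 and 2.85 CPM in the libraries labelled FTO, also without overlap, and the 95% interval of its fold change ran from 2.38 to 5.53.

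Hexokinase traps glucose as glucose-6-phosphate. Hk1, the form found in most cells, was at 167, 167 and 160 CPM in Vector and at 282, 277 and 289 CPM in the libraries labelled FTO, a log2 fold change of 0.78 (SE 0.0417). Hk2, the inducible form, was at 57.5, 62.9 and 63.1 CPM and at 126, 115 and 125 CPM (log2 fold change 0.997, SE 0.0569). Both rose without overlap of the groups, with adjusted p-values of 2.1e-10 and 4.6e-10 in the edgeR test. Gpi, which turns glucose-6-phosphate into fructose-6-phosphate, rose from 280.7 ± 7.03 to 544 ± 15 CPM.

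The 3 genes of phosphofructokinase, the committed step of glycolysis, did not move alike. Pfkl, the liver-type subunit, was at 117, 112 and 114 CPM in Vector and at 367, 359.7 and 368 CPM in the libraries labelled FTO. It rose 3.19-fold (log2 fold change 1.67, SE 0.0415, adjusted p-value 1.7e-14 in the edgeR test). Pfkp, the platelet-type subunit, rose 1.15-fold, from 168 ± 3.58 to 193 ± 5.11 CPM, and its groups did not overlap. Pfkm, the muscle-type subunit, was at 52.2, 53.1 and 43.9 CPM in Vector and at 53, 54.5 and 53.6 CPM in the libraries labelled FTO. The groups of Pfkm overlapped, and its adjusted p-value was 0.184 with a 95% interval of the fold change from 0.972 to 1.2. The change of Pfkp did not pass when tested against a 1.2-fold change (adjusted p-value 0.944, in a range from 8.3e-05 to 0.944 over its 15 alternatives).

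Aldolase splits the 6-carbon sugar. Aldoa, the main form, rose from 733 ± 24.5 to 1217 ± 60.6 CPM (log2 fold change 0.73). Aldoc, the form known from brain, was at 6.14, 6.04 and 7.13 CPM in Vector and at 32.1, 32.9 and 32.1 CPM in the libraries labelled FTO, so it rose 5.02-fold (log2 fold change 2.33, SE 0.0939, adjusted p-value 6.5e-12 in the edgeR test).

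Triosephosphate isomerase (Tpi1) and glyceraldehyde-3-phosphate dehydrogenase (Gapdh) act next, and every cell that runs glycolysis uses them. Tpi1 lay just inside the count rule, with 1 to 9 counts per Vector library and 23 to 28 in the others, which is 0.0732, 0.201 and 0.623 CPM against 1.96, 1.74 and 1.34 CPM. Its log2 fold change of 2.43 therefore has a wide 95% interval, 1.43 to 3.42, and was 3.49 without Vector replicate 3. Gapdh was at 114, 94.3 and 89.7 CPM in Vector and at 165, 168 and 137 CPM in the libraries labelled FTO, a 1.57-fold rise (SE of the log2 value 0.0857, adjusted p-value 7.4e-06 in the edgeR test). Both genes have near-identical copies in the rat genome. RefSeq names 78 pseudogenes after Gapdh and 3 after Tpi1, and the files also list Gapdh-ps2, at 2.63 ± 0.32 and 7.6 ± 1.88 CPM. It is not stated how reads shared between copies were counted, so the levels of Gapdh and Tpi1 are uncertain to that extent. The same holds for Ldha and Eno1 (30 named pseudogenes each), Pkm (19), Pgam1 (13), Aldoa (9), Pgk1 (8), Bnip3 (8), Egln1 (6), Ldhb (1) and Ankrd37 (1). The part of such copies in the changes was not tested.

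The enzymes of the last steps each rose close to 2-fold or above. Pgk1, which makes the first ATP of the pathway, went from 447 ± 11.3 to 877 ± 33.8 CPM (log2 fold change 0.97). Pgam1, a phosphoglycerate mutase, went from 628 ± 5.68 to 1225 ± 34.3 CPM (0.96). Eno1, an enolase, was at 268, 277 and 281 CPM in Vector and at 555, 562 and 539 CPM in the libraries labelled FTO (1.004). These 3 genes had nearly the same log2 fold change. Pkm, the pyruvate kinase, was at 691, 682 and 689 CPM in Vector and at 1705, 1823 and 1726 CPM in the libraries labelled FTO. It rose 2.55-fold (log2 fold change 1.35, SE 0.0396, adjusted p-value 1.3e-13 in the edgeR test). Counts per gene symbol cannot separate the M1 and M2 splice forms of Pkm. Eno2, the enolase of neurons, was the member outside the count rule, with 0 to 3 counts in the Vector libraries and 5 to 9 in the others, and it was not tested.

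**Figure D2:**
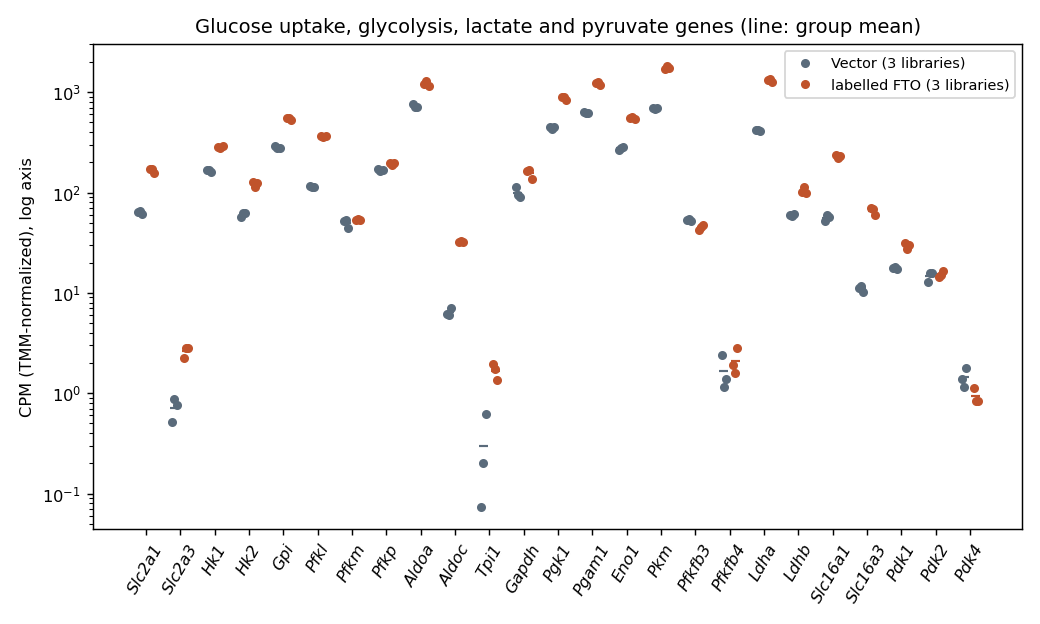
CPM of each library (y axis, log scale) for the 25 tested genes of glucose uptake, glycolysis, lactate and pyruvate control (x axis), with Vector in blue-grey, the libraries labelled FTO in orange-red and the group mean as a line. In 22 of these genes, Tpi1 included, the groups are apart (70.3% of all tested genes are), and Pfkm, Pfkfb4 and Pdk2 overlap.

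Pfkfb3 and Pfkfb4 make or remove fructose-2,6-bisphosphate, the activator of phosphofructokinase, and both are known HIF targets. Pfkfb3 was at 52.8, 53.9 and 51.8 CPM in Vector and at 42.8, 45 and 47.9 CPM in the libraries labelled FTO, and it fell by 0.22 on the log2 scale (SE 0.0609, adjusted p-value 0.00485 in the edgeR test). Every library labelled FTO lay below every Vector library, but the fall did not pass against a 1.2-fold change (adjusted p-value 0.701, in a range from 8.6e-04 to 0.701 over its 15 alternatives). Pfkfb4 was at 2.41, 1.14 and 1.39 CPM in Vector and at 1.89, 1.59 and 2.85 CPM in the libraries labelled FTO, with overlap (adjusted p-value 0.271, log2 fold change 0.40 with a 95% interval of the fold change from 0.831 to 2.1).

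Ldha and Ldhb encode the subunits of lactate dehydrogenase, of which Ldha favours the making of lactate. Ldha was at 421, 424 and 406 CPM in Vector and at 1312, 1355 and 1262 CPM in the libraries labelled FTO, a 3.14-fold rise (log2 fold change 1.65, SE 0.0414, adjusted p-value 1.9e-14 in the edgeR test). Ldhb rose 1.75-fold, from 59.6, 57.7 and 60.5 CPM to 101, 113 and 98 CPM. The carriers of lactate across the plasma membrane that are members, Slc16a1 and Slc16a3, had larger fold changes than either enzyme gene. Slc16a1 (MCT1) was at 51.6, 59 and 57.1 CPM in Vector and at 237, 218 and 232 CPM in the libraries labelled FTO (log2 fold change 2.03, SE 0.0559). Slc16a3 (MCT4), the carrier known for lactate export, was at 11.3, 11.6 and 10.3 CPM and at 69.7, 68.3 and 59.8 CPM, a 5.94-fold rise (log2 fold change 2.57, SE 0.0842). The adjusted p-values of Slc16a1 and Slc16a3 were 5.9e-14 and 4.8e-13 in the edgeR test. Slc16a7, a related carrier outside the member list that was chosen after its values were seen, went the other way. It fell from 12.1 ± 0.455 to 8.43 ± 0.496 CPM (log2 fold change -0.52, adjusted p-value 6.6e-04 in the edgeR test).

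Pyruvate dehydrogenase kinases inhibit the pyruvate dehydrogenase complex. Pdk1, a HIF target, was at 17.9, 18.2 and 17.4 CPM in Vector and at 31.6, 27.4 and 29.8 CPM in the libraries labelled FTO, a 1.66-fold rise (adjusted p-value 1.1e-06 in the edgeR test). Pdk2 was at 12.7, 15.6 and 15.9 CPM and at 14.2, 15.1 and 16.7 CPM, with a 95% interval of the fold change from 0.889 to 1.22. Pdk4, known as a gene of fasting and fat use, was at 1.39, 1.14 and 1.8 CPM in Vector and at 1.12, 0.831 and 0.838 CPM in the libraries labelled FTO. The groups of Pdk4 did not overlap, but it missed the threshold with an adjusted p-value of 0.0832.

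Among the genes of oxygen sensing, the mRNAs of both HIF α subunits were raised. Hif1a was at 168, 175 and 174 CPM in Vector and at 626, 619.6 and 659 CPM in the libraries labelled FTO, a 3.69-fold rise (log2 fold change 1.88, SE 0.0427, adjusted p-value 5.5e-15 in the edgeR test). Epas1, which encodes HIF2α, was at 161, 166 and 162 CPM and at 658, 632 and 656 CPM, a 3.98-fold rise (log2 fold change 1.99, SE 0.0407, adjusted p-value 1.6e-15). The prolyl hydroxylases that mark these proteins differed in the size of their change. Egln3 (PHD3) was at 12.5, 12.9 and 12.9 CPM in Vector and at 85.3, 93 and 73.9 CPM in the libraries labelled FTO. Its 6.57-fold rise was the highest fold change among the tested members (log2 fold change 2.71, SE 0.0893, adjusted p-value 5.1e-13 in the edgeR test). Egln1 (PHD2), the main oxygen sensor of most cells, rose 1.56-fold, from 28.8, 28 and 26.7 CPM to 43.4, 44.6 and 42.6 CPM.

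The other hypoxia targets fell into 3 that rose more than 3-fold and 5 that did not. Adm encodes adrenomedullin, a vasodilator peptide. It was at 111, 101 and 104 CPM in Vector and at 440.1, 453 and 439 CPM in the libraries labelled FTO, a 4.22-fold rise (log2 fold change 2.08, SE 0.0468, adjusted p-value 5.2e-15 in the edgeR test). Bnip3, a receptor for mitophagy, was at 30.6, 29.3 and 32.2 CPM and at 101, 108 and 97.4 CPM, a 3.33-fold rise. Ndrg1, a stress-response gene, was at 20.5, 19.7 and 20.6 CPM and at 70.6, 72.9 and 66.3 CPM, a 3.45-fold rise. Kdm3a, a histone demethylase, rose 1.56-fold, from 50.4 ± 1.54 to 78.5 ± 3.69 CPM, and Ddit4, an inhibitor of mTORC1 signalling, rose 1.27-fold, from 74.5 ± 0.0734 to 94.3 ± 3.89 CPM.

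Vegfa and Car9 are among the best-known HIF targets, and they did not follow these genes. Vegfa, the vascular growth factor, was at 205, 197 and 201 CPM in Vector and at 228, 209.6 and 229.5 CPM in the libraries labelled FTO. Its 1.11-fold rise passed (log2 fold change 0.15, SE 0.0457, adjusted p-value 0.0107 in the edgeR test), but not without Vector replicate 2 (adjusted p-value 0.0606), without FTO replicate 1 (0.0677), with upper-quartile scaling (0.0642) or against a 1.2-fold change (1), in a range from 3.5e-04 to 1 over its 15 alternatives. Car9, a carbonic anhydrase of the cell surface, was at 7.97, 9.93 and 9.9 CPM in Vector and at 3.65, 3.47 and 3.57 CPM in the libraries labelled FTO (log2 fold change -1.38, SE 0.148, adjusted p-value 8.3e-07 in the edgeR test). Each library labelled FTO held less Car9 than each Vector library. Ankrd37, a small ankyrin repeat gene, was at 1.61, 1.88 and 1.94 CPM in Vector and at 2.03, 2.19 and 2.01 CPM in the libraries labelled FTO, and its adjusted p-value was 0.471 at a mean of 28.7 counts per library.

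**Figure D3:**
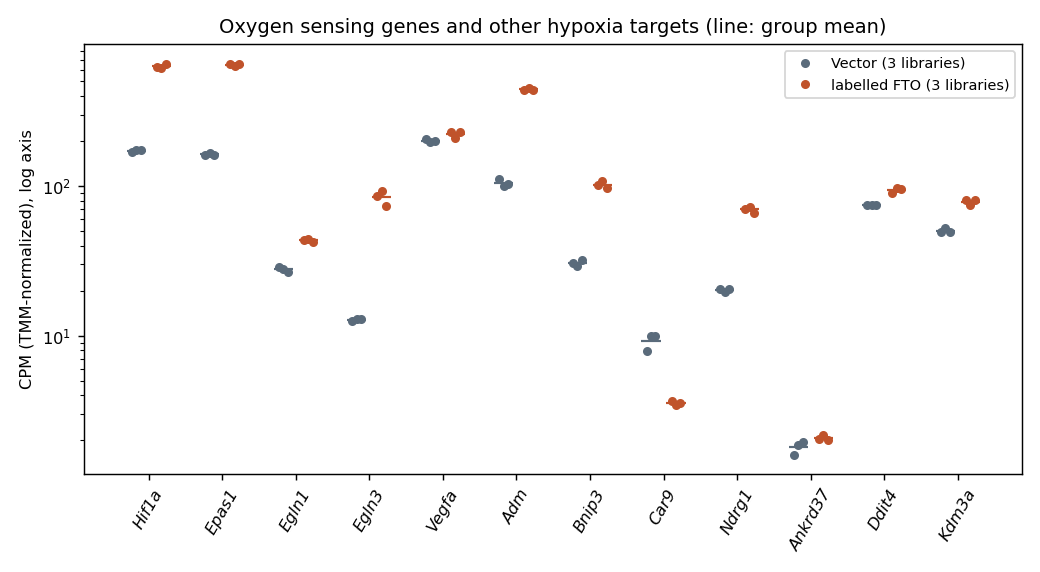
CPM of each library (y axis, log scale) for the 12 genes of oxygen sensing and the other hypoxia targets (x axis), with Vector in blue-grey, the libraries labelled FTO in orange-red and the group mean as a line. The groups of all 12 genes are apart, as are those of 70.3% of all tested genes. Car9 is the gene that was lower, and Vegfa and Ankrd37 are nearly level.

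To compare related genes without any scaling, the log2 ratio of their CPM was taken within each library for 12 pairs. A pair with Eno2 was left out because Eno2 had no count in 1 library. In 9 pairs the ratios of the groups did not overlap. The levels of 70.3% of all tested genes did not overlap either, and no such share was computed for ratios of other pairs. With 3 libraries against 3, the exact permutation test (two-sided) cannot give less than 0.1, which was the p-value of these 9 pairs, and 0.133 after adjustment over the 12. The ratio of Ldha to Ldhb was 7.06, 7.34 and 6.71 in Vector and 13.1, 11.9 and 12.9 in the libraries labelled FTO, a 1.79-fold shift toward Ldha. The ratio of Pfkp to Pfkl was 1.45, 1.46 and 1.48 in Vector and 0.532, 0.519 and 0.533 in the libraries labelled FTO. That of Egln3 to Egln1 went from 0.434, 0.459 and 0.483 to 1.96, 2.08 and 1.74, a 4.19-fold shift. By contrast, Hif1a to Epas1 moved little, from 1.04, 1.06 and 1.07 to 0.952, 0.98 and 1. Hk2 to Hk1 shifted 1.16-fold toward Hk2, Slc16a3 to Slc16a1 1.45-fold toward Slc16a3, Aldoc to Aldoa 3.04-fold toward Aldoc, and Pdk1 to Pdk2 1.59-fold toward Pdk1. A ratio of CPM also depends on the lengths of the transcripts, so only its change between the groups can be read.

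**Figure D4:**
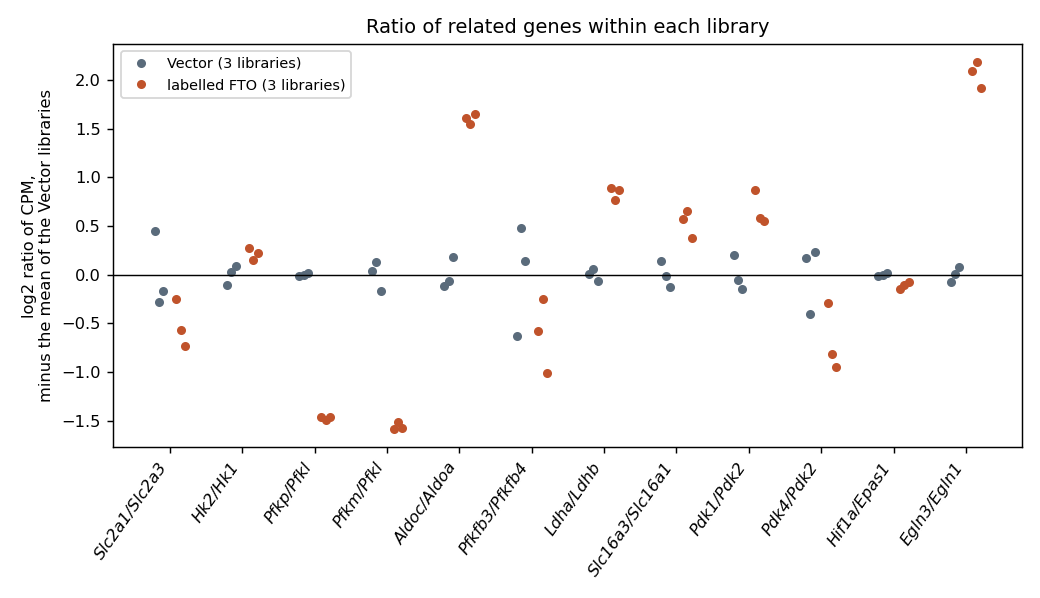
Log2 ratio of CPM within each library for 12 pairs of related genes (x axis), with the mean of the Vector libraries set to 0 (y axis), Vector in blue-grey and the libraries labelled FTO in orange-red. The largest shifts are those of Egln3/Egln1 (2.07), Aldoc/Aldoa (1.60), Pfkm/Pfkl (-1.56) and Pfkp/Pfkl (-1.47), and the Slc2a1/Slc2a3, Pfkfb3/Pfkfb4 and Pdk4/Pdk2 pairs overlap.

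Other genes of the same pathways were then examined. The other glucose transporters and glycolytic isoenzymes had 6 higher and 5 lower of 19 tested (57.9% passing) and a median of -0.06, a share and a split near those of all tested genes (65.9%, with 33.2% higher and 32.8% lower). Pdk3, another pyruvate dehydrogenase kinase, rose from 19.7 ± 1.91 to 71.5 ± 1.98 CPM (log2 fold change 1.86), and Ldhd, a dehydrogenase of D-lactate, rose by 1.2 on the log2 scale. Hk3, a hexokinase known from white blood cells, fell from 42.9 ± 2.89 to 12.9 ± 1.29 CPM (-1.75), beside the fall of the macrophage markers given above. Eno3, the enolase of muscle, fell from 12 ± 0.824 to 4.43 ± 0.0235 CPM (-1.44), while 7 of 8 cardiomyocyte markers were higher. Neither relation was tested.

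The genes of routes that branch from glycolysis had smaller medians than the glycolytic enzymes, and 75%, 33.3% and 88.9% of them passed in the 3 lists below, around the 65.9% of all tested genes. Of the 8 genes for pyruvate entry into mitochondria, 5 were higher and 1 lower, with a median of 0.21, the outer values being those of Dld (0.40) and Dlat (-0.27), subunits of the pyruvate dehydrogenase complex. Pc, the pyruvate carboxylase, rose by 0.26. Of the 6 tested genes of the pentose phosphate pathway, 2 were higher, among them Rpia (0.26), an isomerase of ribose-5-phosphate, and the median was 0.12. Among the 9 glycogen genes, 7 were higher and 1 lower (median 0.36). Pgm1, which links glucose-1-phosphate with glucose-6-phosphate, rose from 56.2 ± 2.65 to 134 ± 6.22 CPM (1.25), and Gys1, a glycogen synthase, from 71.5 ± 0.831 to 154 ± 6.8 CPM (1.10).

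The other regulators of HIF had 7 higher and 2 lower of 14 (64.3% passing, near the 65.9% of all tested genes), with a median of 0.16. Vhl, the ubiquitin ligase subunit that binds hydroxylated HIF α, rose from 61.6 ± 2.51 to 94.8 ± 2.92 CPM (0.62), and Elob, its partner elongin B, rose by 0.56. Arnt, a HIF β subunit, was at 49.7 ± 1.48 and 47 ± 4.36 CPM with overlapping groups (adjusted p-value 0.332 in the edgeR test). Arnt, chosen after its values were seen, is named because HIF binds DNA as a pair of an α and a β subunit. Its relative Arnt2, at 47.2 ± 3.31 CPM in Vector, fell by 0.66. Siah2, a ubiquitin ligase that acts on prolyl hydroxylases, fell by 0.74.

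Of 32 further hypoxia targets tested, 24 were higher and 8 lower, with a median of 0.49 and a range from -3.43 to 5.72. Igfbp3, which binds insulin-like growth factors, rose from 80.7 ± 5.73 to 4266 ± 316 CPM (5.72), and Angptl4, an inhibitor of lipoprotein lipase, from 2.12 ± 0.238 to 82 ± 2.07 CPM (5.27). Vldlr, a lipoprotein receptor, fell from 462 ± 8.65 to 42.8 ± 2.7 CPM (-3.43), and Edn1, the endothelin-1 precursor, from 64.4 ± 1.5 to 10.4 ± 1.35 CPM (-2.63). All 32 passed, where 65.9% of all tested genes did, and they moved in both directions. Hkdc1, Pgd and Mif, which were on these lists, are not analysed here.

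**Figure D5:**
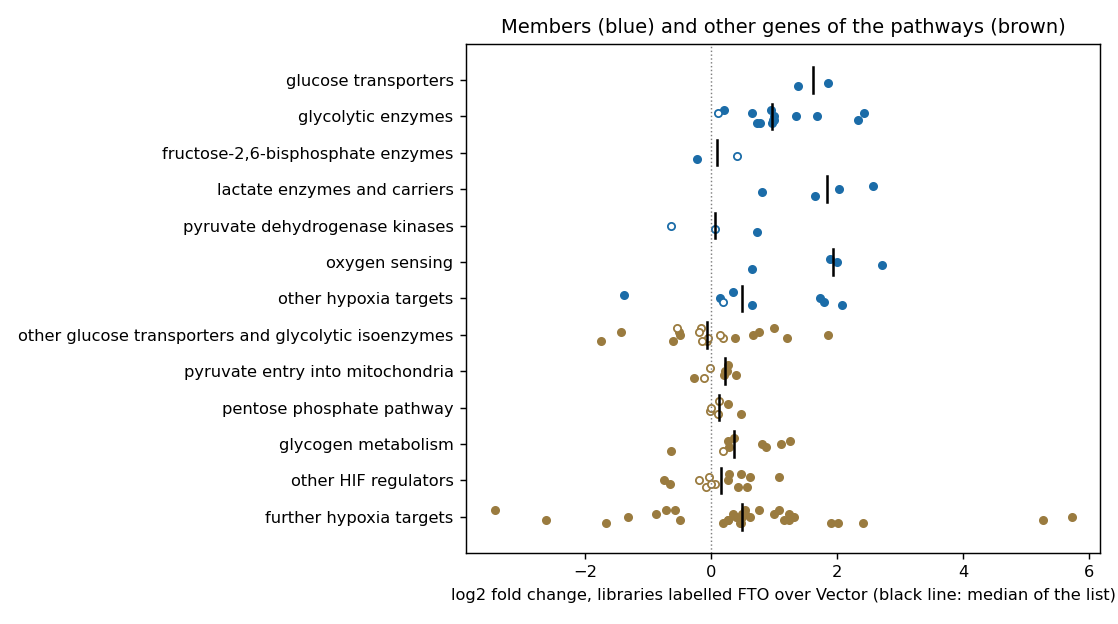
Log2 fold change, libraries labelled FTO over Vector (x axis), of each tested gene of the 7 member lists (blue) and of 6 lists of other pathway genes (brown), with a black line at the median of each list. Filled points had an adjusted p-value under 0.05. The medians run from -0.06 for the other glucose transporters and glycolytic isoenzymes to 1.94 for oxygen sensing, and the further hypoxia targets span the widest range.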

How the data were processed

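RNA-seq of 6 libraries was used, 3 Vector and 3 labelled FTO, grouped by the genotype labels. The deposited files hold raw counts as whole numbers for each gene symbol. The submitters' processing notes name Trimmomatic and rn6, while the aligner, the counting program, the annotation and strand handling are not given in the sources used here. Overlapping and antisense genes, and near-identical copies, may therefore share reads.

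Genes were kept with filterByExpr at a minimum count of 10, which left 12941 genes. Among the members it kept the same 37 as the rule of 10 counts in at least 3 libraries. After TMM scaling, groups were compared in edgeR 4.0.16 (R 4.3.3) with its quasi-likelihood test, two-sided and without covariates. The Benjamini-Hochberg adjustment covered every gene tested. CPM are given as mean ± SD of 3 libraries, and SE were derived from the F statistics. The counts carry no molecular identifiers. A floor of 3 counts was worth 0.168 to 0.227 CPM and covers counting error only.

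The members and the gene lists were chosen with earlier results of these data known, and lists are described by counts and medians without a set test. All members are accounted for, with values per library for those that changed at least 2-fold, those that did not pass and the extremes of each role. Apart from Arnt and Slc16a7, the genes named in each list of other pathway genes follow a rule. They are the 2 largest rises and 2 largest falls that passed, did not overlap and had a mean of at least 100 counts. Some of the genes this rule names are not reported here. Promoter windows were taken from RefSeq (GRCr8), and no coordinates of that build were joined to the counts.

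Alternatives were DESeq2 1.42.0, limma-voom (limma 3.58.1), glmTreat, 3 other scalings, 2 other filters, the replicate number as a block and leaving out each library. On simulated counts, 185 of 196 genes changed 2-fold were recovered among 12812 tested, with 9 false calls. The simulation changed only 200 genes and gave both groups the same spread. In the data, the chi-square per degree of freedom between 2 libraries of a group was 1.6 to 2.2 in Vector. It was 3.4 to 8.4 in the libraries labelled FTO. The edgeR fit also used 1 dispersion per gene for both groups, so its SE and p-values do not allow for this difference. In the data 65.9% of tested genes passed, so the simulation does not give the rate of false calls there.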

Additional observations from a re-analysis of the deposited data

How the results depend on the processing

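The number of members past the adjusted threshold was 29 to 33 under all alternatives, against 32 as reported, with 19 to 22 of the glycolytic genes and 10 or 11 of the hypoxia genes. The 33 came without a filter on low counts, where Eno2 was tested and passed, and the 29 under glmTreat against a 1.2-fold change, where Pfkp, Pfkfb3 and Vegfa did not pass. Over all genes, glmTreat called 5668 against 8531, as a test against a larger change would, and the other alternatives 7795 to 9009. Of 555 values of single members under the alternatives, 547 kept direction and side of the threshold. The 6 lost calls were those of Pfkp, Pfkfb3 and Vegfa given with these genes. Pdk2, which did not pass, changed sign in 2 fits, between -0.0348 (without Vector replicate 1) and 0.1117 over its alternatives, with -0.0138 without FTO replicate 3. The cause was not tested. Tpi1 was the member whose fold change moved by over 1.5 times without 1 library (log2 value 3.49 without Vector replicate 3). Replicate numbers did not pair the libraries, since deviations from the group means correlated at 0.0028, -0.0694 and 0.0207 for equal numbers and at -0.0936 to 0.0874 for unequal ones. With the replicate block, 32 members and 8399 genes passed, and no call of a member changed. The other scalings moved the median of all genes by at most 0.05 on the log2 scale. None of the 12 ratios changed direction on leaving out any 1 library. Low counts limit Tpi1, Slc2a3, Pfkfb4, Pdk4 and Ankrd37, with means of 14.7 to 28.7 counts per library. A p-value above the threshold does not show equal groups for the last 3 of these. Whether the counts of Tpi1 reflect the level of its mRNA is uncertain, as given with that gene.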
